A study of Mus musculus with 8 samples.

Results

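The 1485 summits described here lay at long noncoding RNA (lncRNA) genes. They were taken from a list of 32927 peak summits of ZGLP1, and they made up 4.51% of it (exact 95% binomial interval 4.29 to 4.74). A summit was counted as a lncRNA summit when it lay within 1 kb of the start or end of a gene with the lncRNA biotype in RefSeq's annotation of the mouse genome build GRCm38 (mm10) and over 1 kb from both ends of every protein-coding gene. Within 1 kb of a lncRNA gene lay 3160 summits, and 1675 of these (53.0%) were set aside because a protein-coding gene began or ended within the same distance. The remaining 1485 belonged to 1292 of the 12727 annotated lncRNA genes.

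ZGLP1 is a nuclear protein with GATA-like zinc fingers, which the study's title links to the oogenic fate. A V5-tagged Zglp1 was introduced into mouse embryonic stem cells (ESCs) of a C57BL/6 x DBA2 background, switched on with doxycycline (Dox) and collected with an antibody against V5. The 5 ChIP libraries came from ESCs and from PGCLCs, cells with the character of primordial germ cells that are induced from ESCs in culture. They were PGCLCs on culture day 7 and on day 8 with Dox, PGCLCs on day 7 and on day 8 with Dox and retinoic acid (RA), and ESCs with Dox and RA for 24 h. The PGCLCs had been treated from day 3 on m220 feeder cells, and the ESCs had been sorted as mCherry+. The sample characteristics give the PGCLC sort as SC+ and mCherry+, and the treatment protocol writes SC- and mCherry, which can be read otherwise. The growth protocol names the ESC lines H18 BVSC and BDF1-2-1 BVSC without saying which gave each library. The 3 input libraries came from the day 8 PGCLCs of each treatment and from the ESCs, and every group had 1 library. The protein detected was therefore an introduced, induced one, and no library measured ZGLP1 at its natural level.

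The list names no library and gives no height, so Dox with RA could not be compared with Dox, day 8 with day 7, or PGCLCs with ESCs. The labelled cell types could not be checked against marker genes, since positions carry no expression. Read depth is unknown, so a gene without a summit may be unbound or under the authors' threshold. Summits are single positions and many lie close together, so the exact binomial intervals given below cover counting error only and are too narrow, and no test of a condition was possible.

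LncRNA genes are transcribed like protein-coding genes, often from promoters of their own, but their transcripts are not translated into long proteins. Some act beside the place where they are made, as in imprinting and X inactivation, where a lncRNA silences neighbouring genes on the same chromosome. Others serve mainly as carriers of small RNAs: Snhg genes hold small nucleolar RNAs in their introns, and microRNA host genes hold microRNA hairpins. A large share of annotated lncRNA genes is known only as transcript models without a described function.

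The promoters below are those of lncRNA genes on the lists of known lncRNAs whose summit fell inside the promoter window, so that the bases under a summit can be read. Each window runs from 250 bases before to 50 bases after an annotated start and is RefSeq's sequence of build GRCm38.p6, written 5′ to 3′ along the lncRNA. Capitals mark GATA (the core recognised by GATA factors), CACGTG (an E-box) and GGGCGG (a GC box), on either strand, so that TATC and CCGCCC are GATA and GGGCGG read on the opposite strand.
Platr22, chr1:136695961-136696260, plus strand: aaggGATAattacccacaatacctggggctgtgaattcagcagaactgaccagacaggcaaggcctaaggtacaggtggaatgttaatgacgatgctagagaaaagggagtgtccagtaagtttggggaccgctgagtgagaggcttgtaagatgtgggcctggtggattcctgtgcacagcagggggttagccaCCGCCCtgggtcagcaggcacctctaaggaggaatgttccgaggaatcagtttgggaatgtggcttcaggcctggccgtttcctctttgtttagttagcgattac
Oip5os1, chr2:119594046-119594345, plus strand: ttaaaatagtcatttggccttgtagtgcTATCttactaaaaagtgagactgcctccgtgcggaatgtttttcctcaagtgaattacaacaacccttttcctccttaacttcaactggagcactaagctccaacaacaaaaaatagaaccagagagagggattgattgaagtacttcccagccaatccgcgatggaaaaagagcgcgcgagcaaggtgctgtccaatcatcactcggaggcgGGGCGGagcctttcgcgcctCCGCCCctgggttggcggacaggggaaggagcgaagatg
Tunar, chr12:105336344-105336643, plus strand: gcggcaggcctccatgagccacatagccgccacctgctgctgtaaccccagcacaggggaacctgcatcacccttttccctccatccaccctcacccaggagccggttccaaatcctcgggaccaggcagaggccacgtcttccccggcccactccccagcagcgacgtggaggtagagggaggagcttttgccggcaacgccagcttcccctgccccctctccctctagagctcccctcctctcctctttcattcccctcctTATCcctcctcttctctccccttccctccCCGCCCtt
Firre, chrX:50635272-50635571, minus strand: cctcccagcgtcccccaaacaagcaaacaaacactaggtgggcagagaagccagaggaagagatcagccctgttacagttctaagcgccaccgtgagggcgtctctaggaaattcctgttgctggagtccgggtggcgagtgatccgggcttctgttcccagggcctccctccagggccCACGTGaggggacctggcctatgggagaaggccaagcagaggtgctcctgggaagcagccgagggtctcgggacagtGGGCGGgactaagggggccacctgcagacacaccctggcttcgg
Malat1, chr19:5802623-5802922, minus strand: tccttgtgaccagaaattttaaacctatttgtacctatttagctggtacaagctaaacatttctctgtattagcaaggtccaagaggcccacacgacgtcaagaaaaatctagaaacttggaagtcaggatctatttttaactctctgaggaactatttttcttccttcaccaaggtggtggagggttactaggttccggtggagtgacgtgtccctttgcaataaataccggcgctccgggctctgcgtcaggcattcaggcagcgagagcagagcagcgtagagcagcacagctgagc
The promoters of a pair of small nucleolar RNA host genes, chosen after their values were seen because their summits lay 2 bases before the start, follow.
Snhg12, chr4:132308428-132308727, plus strand: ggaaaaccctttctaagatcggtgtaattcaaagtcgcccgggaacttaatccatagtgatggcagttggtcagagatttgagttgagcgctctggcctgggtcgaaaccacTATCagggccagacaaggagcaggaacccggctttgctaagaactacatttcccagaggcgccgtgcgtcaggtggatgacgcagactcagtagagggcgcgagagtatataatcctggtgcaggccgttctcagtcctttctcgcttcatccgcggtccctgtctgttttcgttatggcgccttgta
Snhg15, chr11:6528711-6529010, minus strand: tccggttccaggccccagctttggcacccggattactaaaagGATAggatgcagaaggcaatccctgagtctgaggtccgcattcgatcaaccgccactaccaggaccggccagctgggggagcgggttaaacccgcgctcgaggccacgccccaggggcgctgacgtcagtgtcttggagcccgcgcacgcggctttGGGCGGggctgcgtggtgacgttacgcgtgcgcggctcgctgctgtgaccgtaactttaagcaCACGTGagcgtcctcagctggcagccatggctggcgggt

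The summit lay 7 bases before the start in Platr22, 126 before it in Tunar, 131 before it in Firre and 160 before it in Malat1, and 49 bases into the gene in Oip5os1. These windows differed in composition. That of Snhg15 was 64.7% G and C with 29 CpG dinucleotides, that of Platr22 was 52.0% with 6, and that of Malat1 was 47.0% with 10. GATA occurred once in the windows of Platr22, Oip5os1, Tunar, Snhg12 and Snhg15 and not in those of Firre and Malat1. CACGTG occurred in Firre and Snhg15, and GGGCGG in all of them but Malat1 and Snhg12.

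LncRNA genes had a summit less often than protein-coding genes. A summit within 1 kb of an end, whatever else lay nearby, was found for 2452 of 12727 lncRNA genes (19.3%, interval 18.6 to 20.0), against 52.9% of 21900 protein-coding genes and 29.8% of all 49980 annotated genes. Pseudogenes, which are mostly not transcribed, stood at 2.34%. The lncRNA genes with a lncRNA summit, which excludes those shared with a protein-coding gene, made up 10.2%. The median distance from a lncRNA gene to its closest summit was 18577 bases, and from a protein-coding gene it was 658 bases.

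Much of the lncRNA share belonged to genes that lie beside a protein-coding gene. Of the 2720 lncRNA genes with an end within 2 kb of a protein-coding gene end, 1508 (55.4%) had a summit within 1 kb, a share close to that of protein-coding genes. Of the 10007 lncRNA genes farther away, 944 (9.43%, interval 8.87 to 10.0) had one. Protein-coding genes over 2 kb from every lncRNA gene end stood at 50.9%, so the gap between the kinds of gene was wider among the genes that lie apart.

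**Figure D1:**
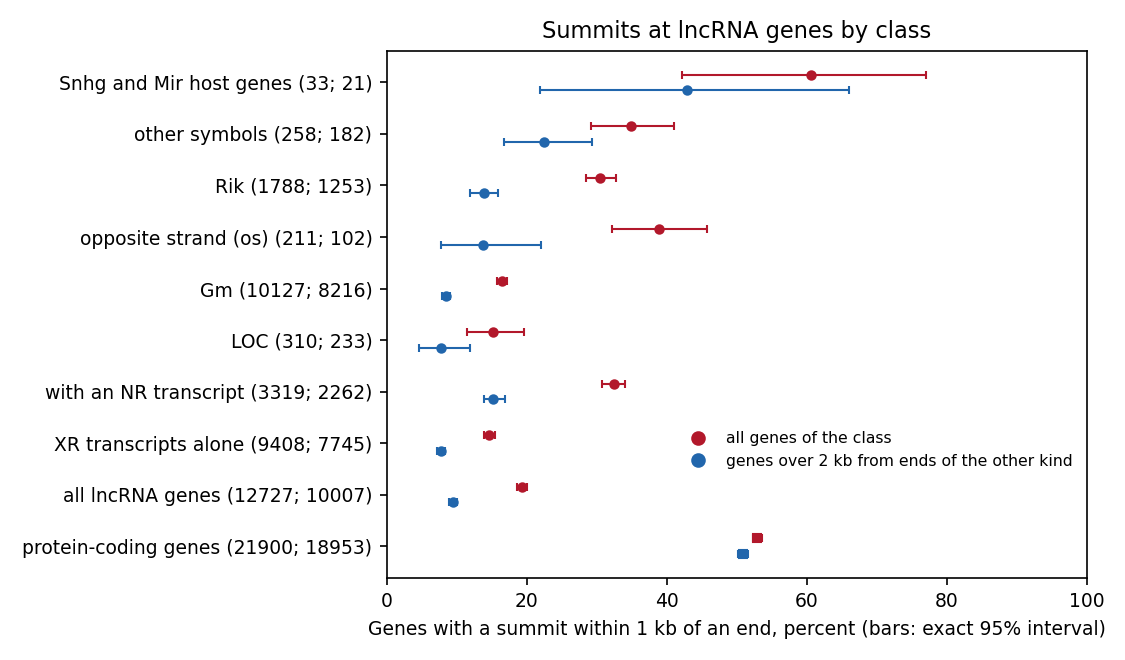
Percentage of genes with a summit within 1 kb of an end (horizontal axis) for classes of lncRNA gene by symbol or transcript type and for protein-coding genes; red is the whole class, blue the genes over 2 kb from ends of the other kind (protein-coding for lncRNA genes, lncRNA for protein-coding genes), bars are exact 95% intervals, and the numbers of genes in the 2 sets stand in brackets. Small RNA host genes stand highest among the lncRNA classes, at 60.6% and 42.9%, and all lncRNA genes are at 19.3% and 9.43%.

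Classes of lncRNA gene differed. Of 33 host genes named Snhg, Gas5 or Mir with the ending hg, 15 had a lncRNA summit (45.5%, interval 28.1 to 63.6), and 20 (60.6%) had any summit within 1 kb. Of 258 genes with other given symbols 56 had a lncRNA summit (21.7%), of 211 named as opposite-strand transcripts 29 (13.7%), of 1788 Rik clones 257 (14.4%), of 310 LOC models 25 (8.06%) and of 10127 Gm models 910 (8.99%). Genes with at least 1 curated (NR) transcript stood at 15.2% (504 of 3319) and those with predicted (XR) transcripts alone at 8.38% (788 of 9408). The order held for genes over 2 kb from protein-coding ends, where any summit was found for 15.2% of curated and 7.75% of predicted genes. Shorter genes had a lncRNA summit more often, from 15.1% up to 2 kb long to 7.33% over 50 kb, although their ends also lie closer together.

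Most lncRNA genes with a lncRNA summit had a single summit. There were 1092 with 1, 168 with 2, 26 with 3 and 6 with 4. The 6 were 1110038B12Rik on chromosome 17, 1700016A09Rik on chromosome 8, Gm11772 on chromosome 11, Gm19426 on chromosome 2, Gm36315 on chromosome 18 and Gm38485 on chromosome 10. At 1110038B12Rik (34950235 to 34952471) they lay 55, 808, 1521 and 2736 bases from the start along the gene, so that the series ran over the whole of a short gene. Of the others, 1700016A09Rik lies inside Gse1, Gm11772 inside Bahcc1 and Gm38485 inside Foxo3, a forkhead factor gene. At Gm38485 (42247436 to 42274809) a run of 3 summits lay 816 and 210 bases before the start and 369 bases after it, and the fourth lay past the end. The genes that complete the 10 with most summits, by symbol, were 1110002J07Rik, 1810019D21Rik, 2410022M11Rik and 2700012I20Rik, with 3 each.

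The lncRNA summits gathered at gene starts. The strand of the nearest lncRNA gene was given for 1183 of the 1485 summits, and 893 of these (75.5%, interval 72.9 to 77.9) lay at its start and 290 at its end. None of the 55 lncRNA summits on chromosome 18 had a strand, so counts by start, end or strand leave that chromosome out. Summits within 1 kb of protein-coding genes lay at the start in 10472 of 11182 cases (93.7%). At lncRNA starts the counts peaked in the 100 bases on either side, with 102 before and 107 after, and fell to 27 in the outermost bin before and 25 in the outermost bin after. At lncRNA ends no bin stood out in this way, with 7 to 25 summits per 100 bases. The median distance was 257 bases from a start and 478.5 bases from an end.

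**Figure D2:**
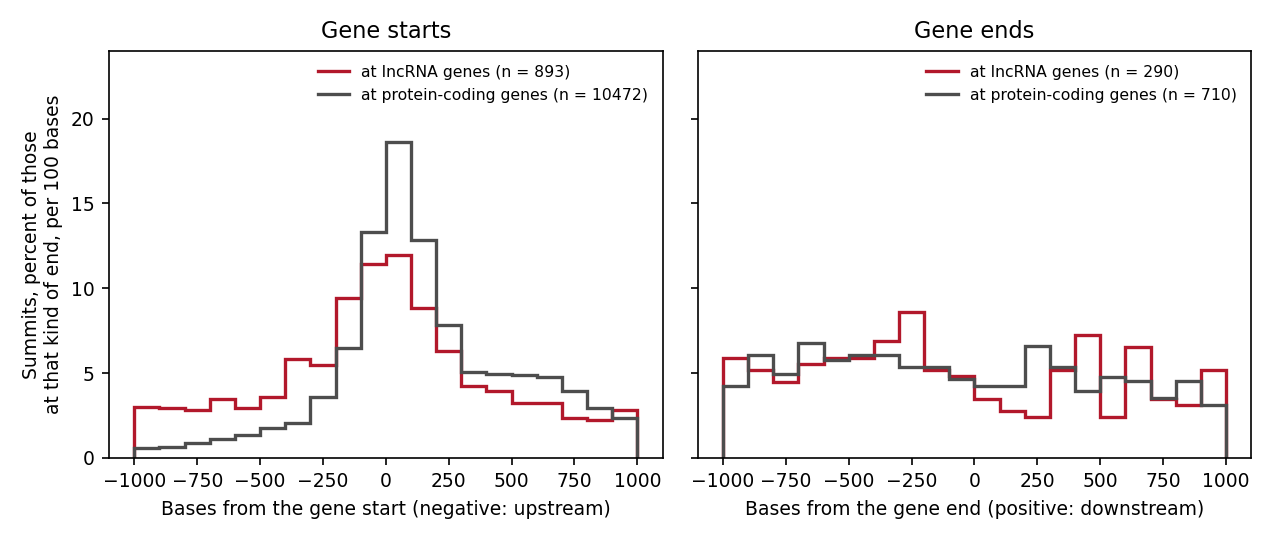
Summits per 100 bases (vertical axis, percent of all summits at that kind of end) by distance from the gene start or gene end (horizontal axis, bases), for lncRNA genes in red and protein-coding genes in grey. At starts both curves peak beside the start, with 12.0% of lncRNA and 18.6% of protein-coding summits in the first 100 bases of the gene, and at ends neither curve peaks at 0.

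The side of the start differed as well. At lncRNA starts the median offset was 3 bases before the start, and 454 of 893 summits (50.8%, interval 47.5 to 54.2) lay upstream. At protein-coding starts the median lay 97 bases into the gene and 31.8% of 10472 (interval 31.0 to 32.7) lay upstream. Within 200 bases lay 41.7% of the summits at lncRNA starts and 51.4% of those at protein-coding starts. By definition, a summit upstream of a lncRNA start was kept only where no protein-coding end lay within 1 kb of it.

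Over all 1485, the distance to the nearest lncRNA end had a median of 349 bases and quartiles of 139 and 643, and 274 summits (18.5%) lay within 100 bases. The closest were those of Gm31437 at 0 bases, of 1700029J03Rik, Gm35090 and Trp53cor1 at 1, of Snhg12 and Snhg15 at 2, and of 4732419C18Rik, Gm31786, Gm34118 and Gm46609 at 3. Closest among LOC models were LOC115487186 at 14 and LOC115490388 at 17 bases, among opposite-strand genes Parvaos at 13 and Galnt6os at 32, and the other given symbol beside Trp53cor1 was Smkr-ps at 3. At the outer limit, 63 lncRNA summits lay in the last 50 bases within 1 kb of a lncRNA end, and 41 summits in the next 50 bases were not counted. At the limit set by protein-coding ends, 14 lncRNA summits lay in the first 50 bases beyond 1 kb, and 25 summits in the 50 bases before it were left out.

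In relation to protein-coding genes the lncRNA summits lay at distances close to those of other summits away from coding ends. Their median distance to the nearest protein-coding end was 10486 bases, against 10573 bases for the 17523 summits over 1 kb from every protein-coding and lncRNA end. Over 50 kb from a protein-coding end lay 16.6% of the lncRNA summits and 17.9% of the other 17523. The lncRNA summits lay inside a protein-coding gene less often than the other 17523, in 664 of 1485 cases (44.7%, interval 42.2 to 47.3), against 60.8% (60.1 to 61.5). Of the 893 summits at lncRNA starts, 429 (48.0%, 44.7 to 51.4) lay inside a protein-coding gene, 362 of them inside one of known strand. Of the 9533 lncRNA genes with a strand, 2487 (26.1%, 25.2 to 27.0) started inside a protein-coding gene of known strand. That share counts genes rather than summits and includes starts within 1 kb of protein-coding ends, so it is not a like measure. Another summit within 1 kb was found for 27.9% of the lncRNA summits (25.7 to 30.3), for 17.1% of the other 17523 (16.6 to 17.7) and for 43.1% of the 13919 at protein-coding ends. At lncRNA starts this share was 31.5% and at lncRNA ends it was 16.6%, which is near that of the other summits.

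Where a lncRNA start with a summit lay inside a protein-coding gene, the lncRNA nearly always ran against it. Of 362 summits at such starts with both strands known, 345 (95.3%, interval 92.6 to 97.2) had the lncRNA antisense to the protein-coding gene. Over all lncRNA genes that start inside a protein-coding gene the share was 90.5% of 2487 (89.3 to 91.6). The first share counts summits, so a gene with several counts repeatedly, and leaves out summits within 1 kb of protein-coding ends. The second counts genes without that limit. These shares carry no p-value, because neighbouring summits and overlapping genes are not independent.

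Imprinted lncRNAs with a summit were Airn, Kcnq1ot1 and Peg13, whose summits each lay inside a protein-coding gene. Of 12 genes on the imprinted and X inactivation list that the annotation holds as lncRNA, 4 (33.3%) had a lncRNA summit. This compares with 10.2% of all lncRNA genes and 19.9% of those without Gm, Rik and LOC symbols. Any summit within 1 kb was likewise found for 4 (33.3%), against 19.3% and 38.3%. Airn (chromosome 17, 12741311 to 12859884) starts within Igf2r, runs beyond it to overlap Mas1, and silences Igf2r and its neighbours in cis, and its summit lay at 12741502, 191 bases into the gene. Kcnq1ot1 (chromosome 7, 143213111 to 143296547) is the antisense transcript of Kcnq1 that silences genes around it, and its summit lay at 143296092, 455 bases into the gene. Peg13 (chromosome 15, 72805602 to 72810324) lies within Trappc9 and had 3 summits, at 72809601, 72810109 and 72810753.

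The starts of Airn and Kcnq1ot1 lie in imprinting control regions. Apart from Airn, Kcnq1ot1 and Peg13, the imprinted lncRNAs on the list had no summit within 1 kb. The closest summit to an end of H19 was 42128 bases away, to Meg3 2022 bases, to Snhg14 43245 bases, to Rian 60927 bases and to Mirg 112875 bases. Of the genes of X inactivation, Xist, whose RNA coats the inactive X, had its closest summit at 12648 bases, Jpx at 45833 and Ftx at 71786 bases. Firre (chromosome X, 50563120 to 50635321), a nuclear RNA that takes part in the folding of chromosomes, had 1 summit, shown above, at 50635452.

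Widely expressed lncRNAs had a lncRNA summit in 8 of 15 cases (53.3%), and in 10 (66.7%) when summits shared with a protein-coding gene were counted, against 10.2% and 19.3% of all lncRNA genes. Genes with given symbols stood higher than all lncRNA genes in general, at 19.9% and 38.3% once Gm, Rik and LOC genes were left out. Malat1, an abundant nuclear RNA (chromosome 19, 5795690 to 5802672), had 2 lncRNA summits, 160 bases before its start and 738 bases past its end, and 5 summits inside it. Neat1 nearby (5824708 to 5845480), the RNA around which paraspeckles form, had 1 at 107 bases outside its upper end and 6 summits inside it. Norad, which binds PUMILIO proteins (chromosome 2, 156388063 to 156392979), had a summit 21 bases inside its upper end. Oip5os1, also called Cyrano, had its summit at 49 bases, Dancr at 174 bases into the gene and Epb41l4aos at 59 bases from an end.

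Trp53cor1, also known as lincRNA-p21, is induced by p53 and lies near the cell cycle inhibitor gene Cdkn1a (chromosome 17, 29057474 to 29079126). It had 3 lncRNA summits, at 29056945, 29078504 and 29079127, the last 1 base beyond its upper end. Zfas1 had 2 (545 and 698 bases from its end), and its closest summit, 327 bases from an end, lay within 1 kb of a protein-coding gene. Gas5 and Tug1 had a summit at 279 and 409 bases that also lay within 1 kb of a protein-coding gene and so were not counted as lncRNA summits. Miat, Pvt1, Lncpint, Mir17hg and Meg3 had none within 1 kb, with the closest at 2514, 15865, 1852, 2027 and 2022 bases.

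LncRNAs known from pluripotent cells had a lncRNA summit in 5 of 22 cases (22.7%), against 10.2% of all lncRNA genes and 19.9% of those without Gm, Rik and LOC symbols, so the share was near that of genes with given symbols. Tunar, needed in mouse ESCs for pluripotency (chromosome 12, 105336594 to 105383932), had 2, at 126 bases before and 726 bases after its start. Lncenc1, a lncRNA of naive ESCs (chromosome 13, 97434970 to 97497664), had 1 at 130 bases into the gene and 5 summits inside it in all. The Platr genes were named for transcripts associated with pluripotency, and Platr22, Platr26 and Platr9 had 1 each, at 7 bases before, 254 bases after and 259 bases before the start. Platr20 had a summit at 113 bases that lay at a protein-coding gene. The other listed Platr genes had none within 1 kb, the closest being at 2287 bases (Platr11), and Sox2ot, which contains the pluripotency gene Sox2, had its closest at 9280 bases.

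LncRNAs of developmental gene loci had a lncRNA summit in 6 of 27 cases (22.2%) and any summit within 1 kb in 11 (40.7%). These shares were also near the 19.9% and 38.3% of genes without Gm, Rik and LOC symbols, while all lncRNA genes stood at 10.2% and 19.3%. Of those in Hox clusters, Hoxd3os1 had a summit 89 bases into the gene, Hotairm1 1 at 368 bases inside its lower end, Hotair 1 at 826 bases outside its lower end, and Hoxb3os 1 at 939 bases past its end. Zeb2os had 2 (97 and 1000 bases from an end) and Foxd2os 1 (891 bases). The closest summits of Hoxb3os and Foxd2os, 122 and 156 bases from an end, lay within 1 kb of a protein-coding gene. Hoxa11os, Gata6os, Lhx1os, Wt1os and Fendrr had a summit at 208, 208, 136, 267 and 654 bases that lay within 1 kb of a protein-coding gene as well. Hottip, Pantr1 and Otx2os1 had their closest at 9925, 8235 and 14129 bases. The list of small structured RNAs could hardly be read, since the annotation holds only Bc1 and Vaultrc5 of it as lncRNA, with closest summits at 508 bases, beside a protein-coding gene, and 7895 bases. The lists share members and were chosen with earlier results of these data known, so the counts describe them only.

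**Figure D3:**
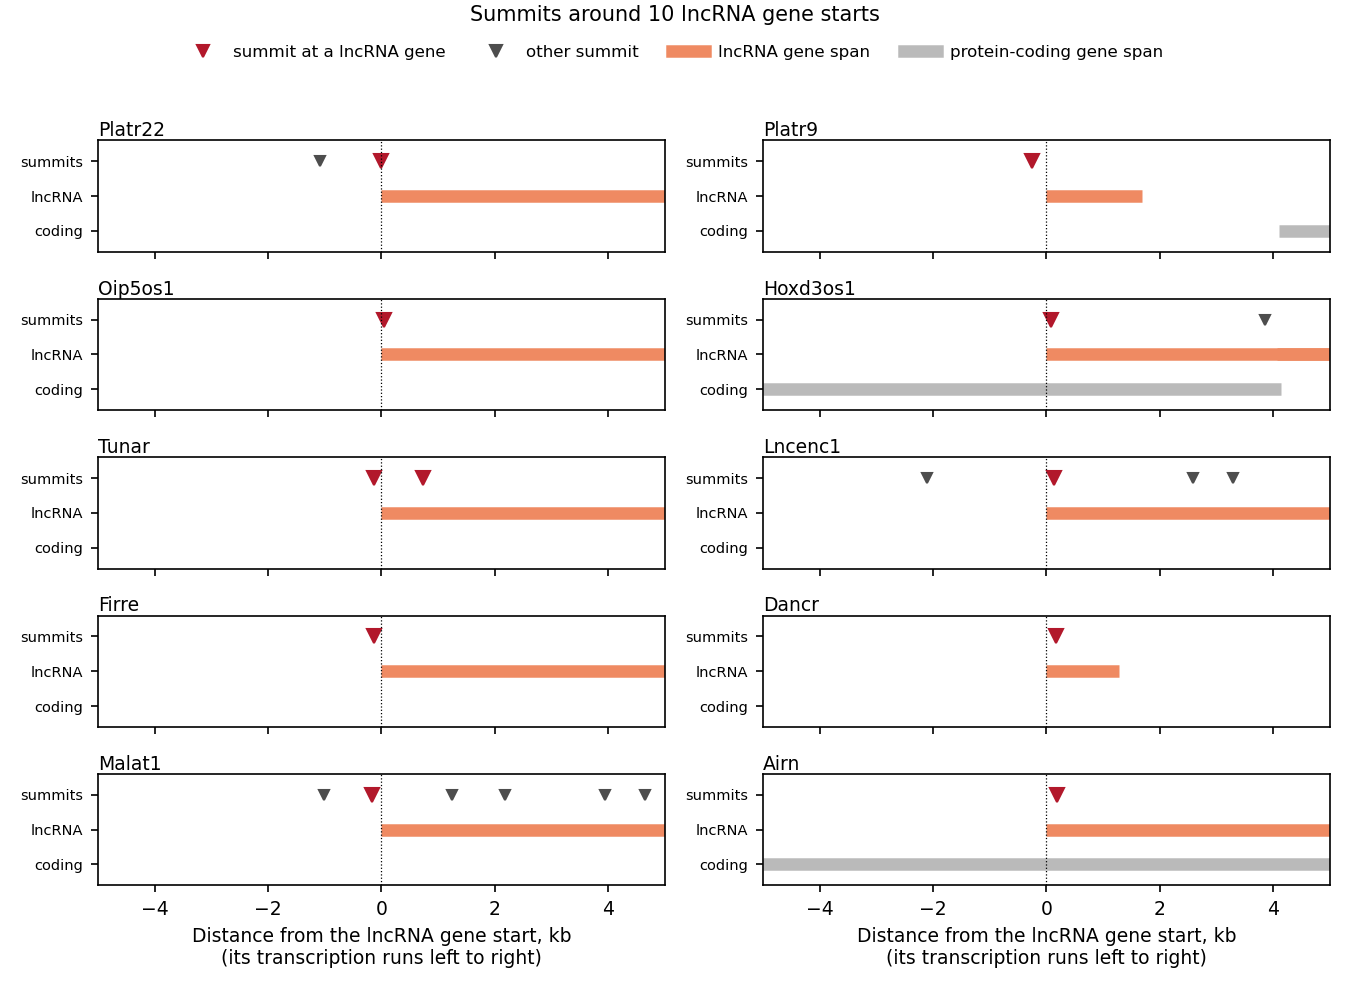
Summits (triangles, red where counted as lncRNA summits, grey otherwise) within 5 kb of the start of 10 listed lncRNA genes, with the spans of lncRNA genes (orange) and protein-coding genes (light grey); the horizontal axis is the distance from the lncRNA gene start in kb, with the lncRNA running to the right. A red triangle stands within 259 bases of the start in each, and Malat1, Lncenc1, Hoxd3os1 and Tunar hold further summits inside the gene within the range drawn.

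The 15 small RNA host genes with a lncRNA summit are all named, Mir22hg and Mirc35hg with the microRNAs further on, Snhg12 and Snhg15, at 2 bases, by the rule for the closest and the others after their values were seen. In all but Mir9-3hg the closest lay within 300 bases of an end. Snhg3, Snhg16, Snhg20 and Snhg7 had a summit 94, 107, 65 and 120 bases into the gene. Snhg8, Snhg11, Snhg17 and Snhg5 had one 198, 87, 107 and 287 bases before the start. Snhg9 had one at 9 bases and Snhg4 at 4 bases, and Mir9-3hg had its single summit 476 bases before the start.

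MicroRNA hosts were also found outside these symbols. Of 73 lncRNA genes whose span holds a mature microRNA, on the same strand where the strand is given, 17 (23.3%, interval 14.2 to 34.7) had a lncRNA summit. All lncRNA genes stood at 10.2%, and those without Gm, Rik and LOC symbols at 19.9%. The 17 hosts carried 51 distinct mature microRNAs. Gm32817 and Gm53058 are counted separately among them although they share a start, a summit and their microRNAs. The sequences below are those of microRNAs from these hosts that share 3 of the 6 seeds found more than once there (bases 2 to 8, in capitals), the part that pairs with target messenger RNAs, and they were chosen after the counts were seen. RefSeq gives them for build GRCm38.p6.
mmu-miR-291a-3p: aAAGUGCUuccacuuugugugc
mmu-miR-294-3p: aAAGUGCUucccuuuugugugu
mmu-miR-295-3p: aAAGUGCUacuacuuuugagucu
mmu-miR-15a-5p: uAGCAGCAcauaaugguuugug
mmu-miR-16-5p: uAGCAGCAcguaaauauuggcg
mmu-miR-322-5p: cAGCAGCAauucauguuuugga
mmu-miR-200b-3p: uAAUACUGccugguaaugauga
mmu-miR-429-3p: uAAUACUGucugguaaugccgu

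The first seed, AAGUGCU, is that of the microRNAs that dominate in mouse ESCs and early germ cells, and their host D7Ertd143e (chromosome 7, 3218784 to 3221015) had 1 summit, at 3220328, 1544 bases into the gene and among the hairpins. The seed AGCAGCA was shared by microRNAs of separate hosts. Dleu2, the host of miR-15a and miR-16 (chromosome 14, 61602836 to 61682373), had summits 530 bases before and 57 bases after its start. C430049B03Rik, the host of miR-322 on the X chromosome, had 1 at 289 bases from its upper end. Gm13648, over miR-200b, miR-200a and miR-429, which keep cells epithelial, had 1 at 33 bases into the gene.

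Mirc35hg, over miR-183, miR-96 and miR-182 (chromosome 6, 30158640 to 30174125), had 3, at 685 and 38 bases before its start and 566 bases into the gene. Mir22hg, over miR-22 (chromosome 11, 75461539 to 75466690), likewise had 3, at 873 bases before and at 8 and 611 bases after its start. In both, the middle summit stood beside the start with a further one on either side. Both hosts of miR-9 in the set, C130071C03Rik and Mir9-3hg, had their summit upstream, at 330 and 476 bases before the start.

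Promoters of lncRNA genes with a summit were richer in CpG than those without. The promoter table held 11587 windows for 9533 lncRNA genes, and 906 windows of 805 genes had a lncRNA summit within 1 kb of the start. These had a median of 11 CpG and 55.7% G and C, against 3 CpG and 46.7% for the 7571 windows with no summit within 10 kb. At least 10 CpG were found in 54.2% of the first and 7.66% of the second. Protein-coding windows with a summit within 200 bases had a median of 22 CpG and 62.0% G and C, and 93.4% had at least 10.

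The letters GATA were found less often at lncRNA starts with a summit, and GC boxes and E-boxes more often. GATA on either strand stood in 49.6% of the 906 windows (interval 46.3 to 52.9), against 72.3% (71.2 to 73.3) of the 7571 without a summit and 66.5% of all 11587. The longer forms AGATAA and TGATAA, which contain GATA, stood in 7.51% and 6.07%, against 16.2% and 13.5%. GGGCGG stood in 42.7% (39.5 to 46.0), against 7.34% (6.77 to 7.95) without a summit and 16.3% of all. CACGTG stood in 9.93% (8.06 to 12.1), against 4.97% (4.49 to 5.48) and 5.89% of all, and in 13.2% of the 416 windows with a summit within 200 bases. Before any split by composition, CCGGAAG, a site of ETS factors, stood in 8.61%, against 2.30%, and TGACGTCA, the cyclic AMP response element, in 2.32%, against 0.568%.

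**Figure D4:**
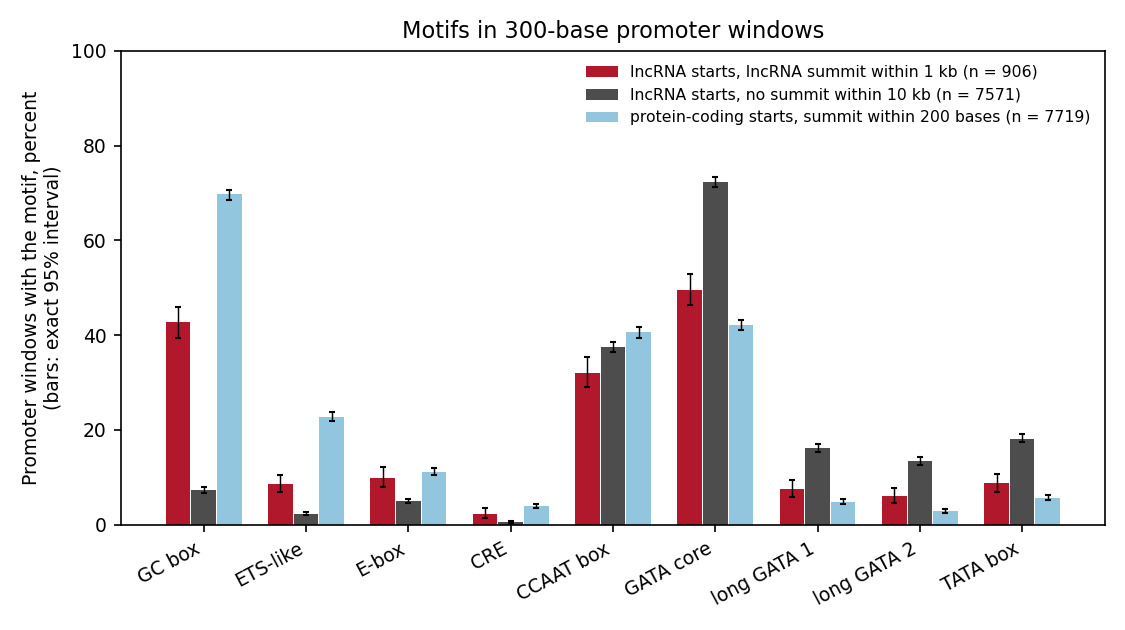
Percentage of 300-base promoter windows that hold each motif on either strand (vertical axis, bars are exact 95% intervals), for lncRNA starts with a lncRNA summit within 1 kb, lncRNA starts with no summit within 10 kb, and protein-coding starts with a summit within 200 bases; the first and second long GATA forms are AGATAA and TGATAA, and CRE is the cyclic AMP response element. GC boxes stand at 42.7%, 7.34% and 69.7% and the GATA core at 49.6%, 72.3% and 42.2% in that order.

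CCAAT stood in 32.1% of windows with a summit and 37.4% of those without, and TATAAA, the TATA box, in 8.72% and 18.2%. At 60% or more G and C both turned round, with CCAAT in 25.7% and 22.8% and TATAAA in 3.89% and 3.05%. The palindromic site of NRF1 was found in 4 of the 906 windows (0.442%), against 0.0925% without a summit, but in 0 of 415 and 3 of 6991 (0.0429%) among windows with fewer than 10 CpG. The site bound by ZNF143 was found in 0 of 906, which allows a share of up to 0.406% by the exact interval, against 2 of 7571 (0.0264%) without a summit, and in 0.423% of all protein-coding windows. All 11 motifs were searched on both strands, windows of a gene with several starts can overlap, and a match is a description and not a bound site.

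Base composition moved with these shares, so the windows were split by it, which did not even it out. With 10 or more CpG, windows with a lncRNA summit had a median of 21 CpG and 62.7% G and C, against 12 and 54.7% without a summit. At 60% or more G and C the medians were 26 and 67.0%, against 15 and 62.7%. The differences below are therefore not adjusted for composition. Among windows with 10 or more CpG, GATA stood in 34.0% of 491 with a lncRNA summit (29.8 to 38.4) and 53.8% of 580 without (49.6 to 57.9), and among windows with fewer in 68.0% of 415 (63.2 to 72.4) and 73.8% of 6991 (72.7 to 74.8). Among windows of at least 60% G and C the GATA intervals overlapped, at 24.9% (20.3 to 29.8) and 31.5% (25.1 to 38.5). CACGTG stood in 11.8% (9.09 to 15.0) and 7.93% (5.86 to 10.4) of CpG-rich windows, whose intervals overlap, and in 7.71% (5.33 to 10.7) and 4.72% (4.24 to 5.24) of the others. CCGGAAG stood in 11.2% (8.55 to 14.3) and 5.69% (3.95 to 7.9) of CpG-rich windows. In the others it stood in 5.54% (3.55 to 8.2) and 2.02% (1.7 to 2.37). The TGACGTCA intervals overlapped in CpG-rich windows, at 3.05% (1.72 to 4.99) and 1.9% (0.95 to 3.37). They also overlapped in the others, at 1.45% (0.532 to 3.12) and 0.458% (0.313 to 0.646). GGGCGG stood in 61.9% and 30.3% of CpG-rich windows and in 20.0% and 5.44% of the others. Over all CpG-rich lncRNA windows, GATA stood in 40.0%, CACGTG in 9.8%, GGGCGG in 55.3%, CCGGAAG in 10.9% and TGACGTCA in 2.85%. Over all the others these shares were 72.8%, 4.97%, 7.09%, 2.24% and 0.533%. At 60% or more G and C, all lncRNA windows held GATA in 26.9%, GGGCGG in 71.8% and CCGGAAG in 11.9%. Those with a lncRNA summit held them in 24.9%, 74.3% and 9.28%, and those without a summit in 31.5%, 50.8% and 4.06%.

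Inside the promoter windows themselves lay 279 lncRNA summits, at 282 genes. The shares of all lncRNA windows that hold each motif are given above. Some motif centres lie within 50 bases of a summit by position alone, and no background share was computed for this distance. Whether motifs gather at summits was therefore not tested, and the counts that follow are a description only. In 118 of these (42.3%) the window held GATA, and in 40 (14.3%, interval 10.4 to 19.0) its centre lay within 50 bases of the summit. For GGGCGG the counts were 143 (51.3%) and 74 (26.5%), and for CACGTG they were 38 (13.6%) and 12 (4.30%).

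Chromosomes differed in the share of lncRNA genes with a lncRNA summit. It was highest on chromosome 17 (85 of 505 genes, 16.8%), 19 (13.9%) and 11 (13.7%) and lowest among autosomes on chromosome 14 (33 of 603, 5.47%). On the X chromosome it was 9 of 289 (3.11%, interval 1.43 to 5.83), against 1283 of 12408 on autosomes (10.3%, 9.81 to 10.9). With summits shared with a protein-coding gene included, 11.8% of X-linked and 19.5% of autosomal lncRNA genes had a summit within 1 kb. Among genes without Gm, Rik and LOC symbols, 8 of 21 X-linked genes (38.1%, interval 18.1 to 61.6) and 184 of 480 autosomal genes (38.3%, 34.0 to 42.8) had any summit. A lncRNA summit was found for 5 of 21 (23.8%, 8.22 to 47.2) and 95 of 480 (19.8%, 16.3 to 23.6). The X-linked intervals are too wide to tell whether the gap is absent among these genes. The copy number and the state of the X in these cells were not measured. The 9 X-linked genes were Firre, Kantr, Kis2, Mdrl, 5730405O15Rik, C430049B03Rik, AW822252, Gm39521 and Gm53059, named after their values were seen. No lncRNA summit lay on the Y chromosome, where 30 lncRNA genes are annotated, which allows a share of up to 11.6% by the exact interval.

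**Figure D5:**
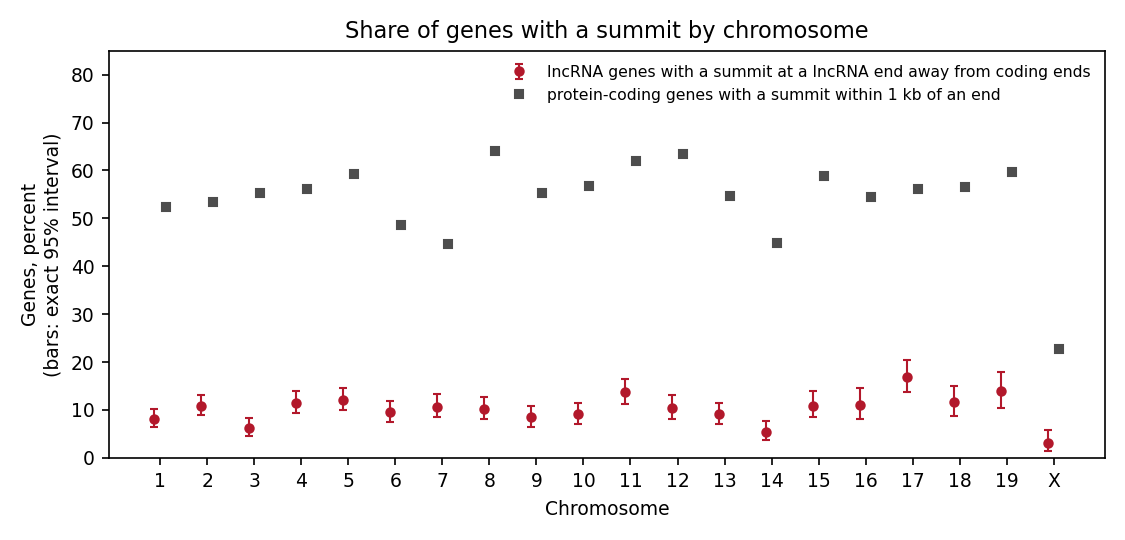
Percentage of genes with a summit (vertical axis) by chromosome (horizontal axis), for lncRNA genes with a lncRNA summit in red, with exact 95% intervals, and protein-coding genes with a summit within 1 kb of an end in grey. The Y chromosome is not drawn, and of those drawn the X chromosome is lowest for both, at 3.11% and 22.7%.

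Some protein-coding genes had several lncRNA summits nearest to them. The 1485 summits had 1134 different nearest protein-coding genes by distance to a gene end, of which 59 had at least 3, and a summit could lie inside that gene or another. Gins2 had 7, between 42579 and 93712 bases away at Gm51556 and 1700016A09Rik, and Cxxc5 and Nrf1, a regulator of nuclear genes for mitochondria, had 6 each. Bahcc1, Ppp2r5c and Tle3, a Groucho corepressor gene, had 5 each. Bcat1, Btn1a1, Flt1, Foxo3, Hspa1b, Irs2, Katnal1, Rab11fip4, Reep3, Rnf220, Spen and Ypel4 had 4 each. The genes with 3 that are named below were picked from the 59 after their counts were seen. No such count was made for other summits, so these numbers are a description only. Among signalling genes, Bmp4, whose protein is used to induce PGCLCs, had 3 at Gm15222, all inside the Bmp4 gene and between 1785 and 3368 bases from its nearer end. The Notch target Hes1, the BMP-responsive Id4 and the insulin signalling gene Irs2 had 3, 3 and 4, the farthest at 56240, 243379 and 62862 bases. Hoxa3 and Hoxb9 had 3 each, those of Hoxb9 at Gm53. Being nearest does not link a summit or a lncRNA to the gene.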

How the data were processed

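The authors deposited the positions of peak summits (in bases of build mm10), and the list holds no score, height or library. Per the submitters' processing notes, MACS2 2.1.1.20160309 and HOMER 4.9.1 were used beside Bowtie 1.1.2, SAMtools 1.3, Picard 2.1.0 and bedtools, and Trim Galore 0.4.1 with cutadapt 1.9.1. Their settings, the peak threshold and the libraries behind the list are not given in the sources used here, nor whether positions count from 0 or 1. The distance of each summit to the ends of RefSeq's GRCm38.p6 genes was computed with Python 3.11.15, numpy 2.4.6 and pandas 2.3.3, and exact intervals with SciPy 1.17.1. The calculation, tested on 500 simulated summits and 339 lncRNA genes of chromosome 19, equalled a direct one for all of them. The annotation table holds 0 genes of an ncRNA biotype, so the lncRNA biotype alone defined the genes, and 9 antisense_RNA genes were not included. Strand came from the promoter table, which covers 9533 lncRNA genes and gave no strand for the nearest lncRNA gene of any lncRNA summit on chromosome 18. Named were listed genes with a lncRNA summit, the 10 genes with most and with the closest, and the 2 closest of each symbol class. Protein-coding genes nearest to at least 4 lncRNA summits were also named. Those nearest to 3 were named in part, picked after their counts were seen. Members and lists were chosen with earlier results of these data known.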

Additional observations from a re-analysis of the deposited data

How the results depend on the processing

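Of 106 alternatives over 18 results, 49 stayed within the limits set for a change and 57 moved. Of the 57, 21 were among 40 values of motifs other than the GATA core, the E-box and the GC box. The 49 include every value for the lncRNA biotype alone, a setting identical to the main one because the annotation holds no ncRNA biotype. They also include lncRNA summit counts that rose with protein-coding ends kept 500 bases away and fell at 5 kb. The 49 is therefore not a measure of stability. Windows with a summit turned from lower to higher than those without for CCAAT (25.7% and 22.8%) and TATAAA (3.89% and 3.05%) at 60% or more G and C, and from higher to lower for the NRF1 site (0.0% and 0.0429%) with fewer than 10 CpG. The distance limit set the counts. At 500 bases there were 965 lncRNA summits, 15.3% of lncRNA genes had any summit and 7.24% a lncRNA summit, 80.6% of summits lay at starts and the median distance was 191 bases. At 2 kb these values were 2324, 23.9%, 14.8%, 71.6% and 686 bases. Without Gm, Rik and LOC genes there were 130 summits, 30.0% of them inside protein-coding genes, with 38.3% and 19.9% of genes and a median of 228 bases. Of the 21 X-linked genes left, 38.1% (interval 18.1 to 61.6) had any summit, against 38.3% of autosomal ones. These genes are too few to tell whether the gap to the autosomes closes. With summits within 1 kb of each other merged, which left 27804, 18.6% of lncRNA genes had any. With protein-coding ends kept 500 bases away, 12.9% of genes had a lncRNA summit, 52.3% of these summits lay inside protein-coding genes, 78.6% at starts, at a median of 381 bases. At 5 kb the values were 7.02% of genes, 34.5% inside and 311 bases. Outside protein-coding spans lay 821. GATA stood in 64.0% of windows under 60% G and C, 24.9% at 60% or more, 68.0% with fewer than 10 CpG and 34.0% with more. The E-box stood in 13.2% within 200 bases of a summit and 7.71% with fewer than 10 CpG. The GC box stood in 51.4% within 200 bases, 24.3% under 60% G and C, 74.3% at 60% or more, 20.0% with fewer than 10 CpG and 61.9% with more. For the symbol and composition splits the cause was not tested.

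Chosen after the data were seen were the CpG splits, the windows of 60% or more G and C, the X-linked and autosomal genes with given symbols, the addition of antisense_RNA genes (1487 summits), positions raised by 1 base (1484) and genes over 2 kb long (76.8% at starts). No paired analysis was possible because there was a single library in every group and summits are not tied to libraries. Depth is unknown, so no limit can be set for genes without a summit.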

Other observations

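Chaserr, a lncRNA that lies upstream of Chd2 and is known to restrain its expression, had 2 lncRNA summits at its start on chromosome 7, at 73557835 and 73558619. They lay 560 and 224 bases from the annotated start, and 16089 and 16873 bases from the nearest end of Chd2. Gm15222, which overlaps Bmp4, had its 3 summits, all inside Bmp4, at 46386893, 46387502 and 46388884 on chromosome 14, the middle one 24 bases from the annotated start. BB283400, next to the microRNA host Mirc35hg, had 3 as well, at 30176100, 30176863 and 30177633 on chromosome 6. Zbtb11os1, an opposite-strand lncRNA, had 3 between 1035 and 3287 bases from the nearest end of Rpl24, a ribosomal protein gene.

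Of the 290 lncRNA summits at gene ends, 25 (8.62%, exact 95% interval 5.66 to 12.5) also lay within 1 kb of an annotated lncRNA start. With summits shared with protein-coding genes included, 26 of the 73 microRNA host lncRNA genes (35.6%) had a summit within 1 kb. All lncRNA genes stood at 19.3%, and those without Gm, Rik and LOC symbols at 38.3%.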
